A study of Mus musculus with 16 samples.

Results

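Fgf10, Fgf7 and the 4 fibroblast growth factor (FGF) receptor genes Fgfr1, Fgfr2, Fgfr3 and Fgfr4 were described across epithelium and mesenchyme of 2 embryonic mouse salivary glands. The 6 genes were picked by name and are 6 of the 23380 genes in the deposited table of normalized values. RNA had been sequenced from 16 bulk libraries of wild-type mice of the outbred ICR strain at embryonic day 13, with no transgene or treatment named. The 4 groups were parotid epithelium, submandibular epithelium, parotid mesenchyme and submandibular mesenchyme, with 4 libraries each, which the labels call biological replicates. The labels do not settle whether the tissue had been cultured before RNA was taken, and they do not say how many embryos went into a library.

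FGF10 and FGF7 are secreted growth factors that mesenchyme makes in many branching organs. Both bind mainly the IIIb splice form of FGFR2, which epithelium makes, and with heparan sulfate as cofactor they switch on the RAS and ERK kinase relay. Loss of Fgf10 or of the IIIb form of Fgfr2 stops early growth of salivary glands, which is what this ligand and receptor pair is best known for in this tissue. FGFR1, FGFR2 and FGFR3 are each made as a IIIb or a IIIc form, according to which of a pair of exons for the third immunoglobulin loop is kept. FGFR4 has a single form of that loop.

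The values are counts per gene, and a gene count adds the IIIb and IIIc forms together, so none of the values below says which form was made. Shown are the IIIb exon of Fgfr2, the receptor of FGF10 and FGF7, and both exons of Fgfr3, the receptor that differed most between the epithelia. They come from GENCODE M21 on GRCm38, are written 5′ to 3′ on the coding strand, and have in capitals the longest run that the Fgfr3 pair shares.
Fgfr2 IIIb exon (chr7:130199758-130199905, minus strand): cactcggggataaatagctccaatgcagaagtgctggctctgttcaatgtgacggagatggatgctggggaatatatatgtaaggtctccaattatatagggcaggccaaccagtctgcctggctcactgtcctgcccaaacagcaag
Fgfr3 IIIb exon (chr5:33731281-33731431, plus strand): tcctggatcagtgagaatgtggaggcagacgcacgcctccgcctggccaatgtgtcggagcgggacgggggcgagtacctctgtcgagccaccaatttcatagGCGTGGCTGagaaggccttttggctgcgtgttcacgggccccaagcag
Fgfr3 IIIc exon (chr5:33732117-33732261, plus strand): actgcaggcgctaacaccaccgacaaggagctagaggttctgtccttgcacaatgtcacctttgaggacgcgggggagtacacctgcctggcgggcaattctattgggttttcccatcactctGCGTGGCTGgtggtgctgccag
The Fgfr3 pair shared a run of 9 bases and was 50.6% identical when aligned. Between receptors the IIIb exon of Fgfr2 was 74.3% identical to that of Fgfr1 and 54.8% identical to that of Fgfr3. Between Fgfr1 and Fgfr3 the IIIc exons were 77.4% identical and the IIIb exons 52.6%. The longest identical run between transcripts of any 2 receptors was 14 to 26 bases.

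The genes lie apart, except that Fgf10 and Fgfr4 are both on chromosome 13. On GRCm38, Fgf10 (ENSMUSG00000021732) is annotated at chr13:118669791-118792115, plus strand, and Fgf7 (ENSMUSG00000027208) at chr2:126034658-126091185, plus strand. Fgfr1 (ENSMUSG00000031565) is at chr8:25513654-25575718, plus strand, and Fgfr2 (ENSMUSG00000030849) at chr7:130162451-133123350, minus strand, a span that read-through transcripts lengthen. Fgfr3 (ENSMUSG00000054252) is at chr5:33721674-33737068, plus strand, and Fgfr4 (ENSMUSG00000005320) at chr13:55152640-55168759, plus strand. The library kit does not mark the strand of a read, so reads of antisense genes over the exons of Fgf10 (69 bases, Gm16263), Fgfr1 (164 bases, Gm16159) and Fgfr3 (511 bases, G630022F23Rik) cannot be told apart from reads of the gene. Fgfr2 shares 210 bases of exon with Ctbp2 on the same strand.

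Fgf10 and Fgf7 were both far lower in epithelium than in mesenchyme (values below), and the bases around their start sites are shown for this reason. RefSeq (GRCm38.p6) gave a start for 5 of the 6 genes, with none for Fgfr1. Each window runs from 250 bases before to 50 bases after the RefSeq start, 5′ to 3′ on the gene's strand, with GC boxes (GGGCGG on either strand) in capitals. The Fgf7 window takes in the start of the gene span given above. The Fgf10 window lies well inside its span, which begins at chr13:118669791, so it does not show the bases at that outer start.
Fgf10 (chr13:118714449-118714748, plus strand): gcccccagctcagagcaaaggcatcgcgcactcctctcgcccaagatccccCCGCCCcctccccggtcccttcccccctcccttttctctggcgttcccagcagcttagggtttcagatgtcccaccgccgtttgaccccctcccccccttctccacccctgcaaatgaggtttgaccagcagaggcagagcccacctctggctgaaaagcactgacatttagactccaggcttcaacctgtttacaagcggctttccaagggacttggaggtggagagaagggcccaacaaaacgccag
Fgf7 (chr2:126034408-126034707, plus strand): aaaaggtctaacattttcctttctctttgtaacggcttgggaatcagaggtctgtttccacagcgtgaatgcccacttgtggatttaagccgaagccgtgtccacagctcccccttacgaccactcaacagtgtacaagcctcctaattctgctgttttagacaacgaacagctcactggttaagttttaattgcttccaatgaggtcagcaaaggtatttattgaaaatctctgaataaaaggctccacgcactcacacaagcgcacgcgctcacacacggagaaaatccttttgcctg
The Fgf10 window held 1 GC box, 10 CpG and 60.7% G or C. The Fgf7 window held no GC box, 11 CpG and 45.7% G or C. A GC box was found in 35.7% of all 32851 promoter windows. Neither window held TATAAA (13.6% of all windows), CACCTG (20.2%), TAATTA (5.29%) or CCGGAAGT (3.89%), each searched on both strands. A match or its absence describes these letters only. Fgfr4 was far lower in epithelium too (values below). Its window, not shown, held 4 GC boxes, 20 CpG and 65.3% G or C.

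The libraries held 16912258 to 27646844 gene counts each. The layers carried the markers of their labels: 20 of 20 epithelial markers were higher in epithelium in both glands, and of 20 mesenchymal markers 19 were higher in mesenchyme in parotid and 20 in submandibular gland. Summed mesenchymal markers in epithelium were 2.27% of their level in mesenchyme in parotid and 3.26% in submandibular gland. Summed epithelial markers in mesenchyme were 0.879% and 1.37% of their level in epithelium. These are bulk samples, in which fewer cells of a type and less RNA per cell cannot be told apart.

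All 6 genes passed the filter on low counts and were tested with edgeR's quasi-likelihood test among 18191 genes, where called means a Benjamini-Hochberg adjusted p under 0.05. Between parotid and submandibular epithelium 2 of the 6 were called, beside 20.9% of all genes, with Fgf7 higher (as were 11.2% of all genes) and Fgfr3 lower in parotid (9.72% of all genes). Between the mesenchymes 4 of 6 were called, beside 34.5% of all genes: Fgfr3 and Fgfr4 were higher (20.8% of all genes) and Fgf7 and Fgfr2 lower in parotid (13.7%). Between epithelium and mesenchyme 6 of 6 were called in parotid gland, beside 64.9% of all genes, and 5 of 6 in submandibular gland, beside 67% of all genes. In parotid gland 2 were higher in epithelium (31.4% of all genes) and 4 lower (33.5%), and in submandibular gland 2 were higher (33.3%) and 3 lower (33.7%). The gland difference itself differed between the layers for 3 of 6 (Fgf7, Fgfr2 and Fgfr3), beside 20.9% of all genes, with 2 above 0 (8.67% of all genes) and 1 below 0 (12.2%). With 6 genes, such shares describe the genes and do not set them apart from the rest.

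**Figure D1:**
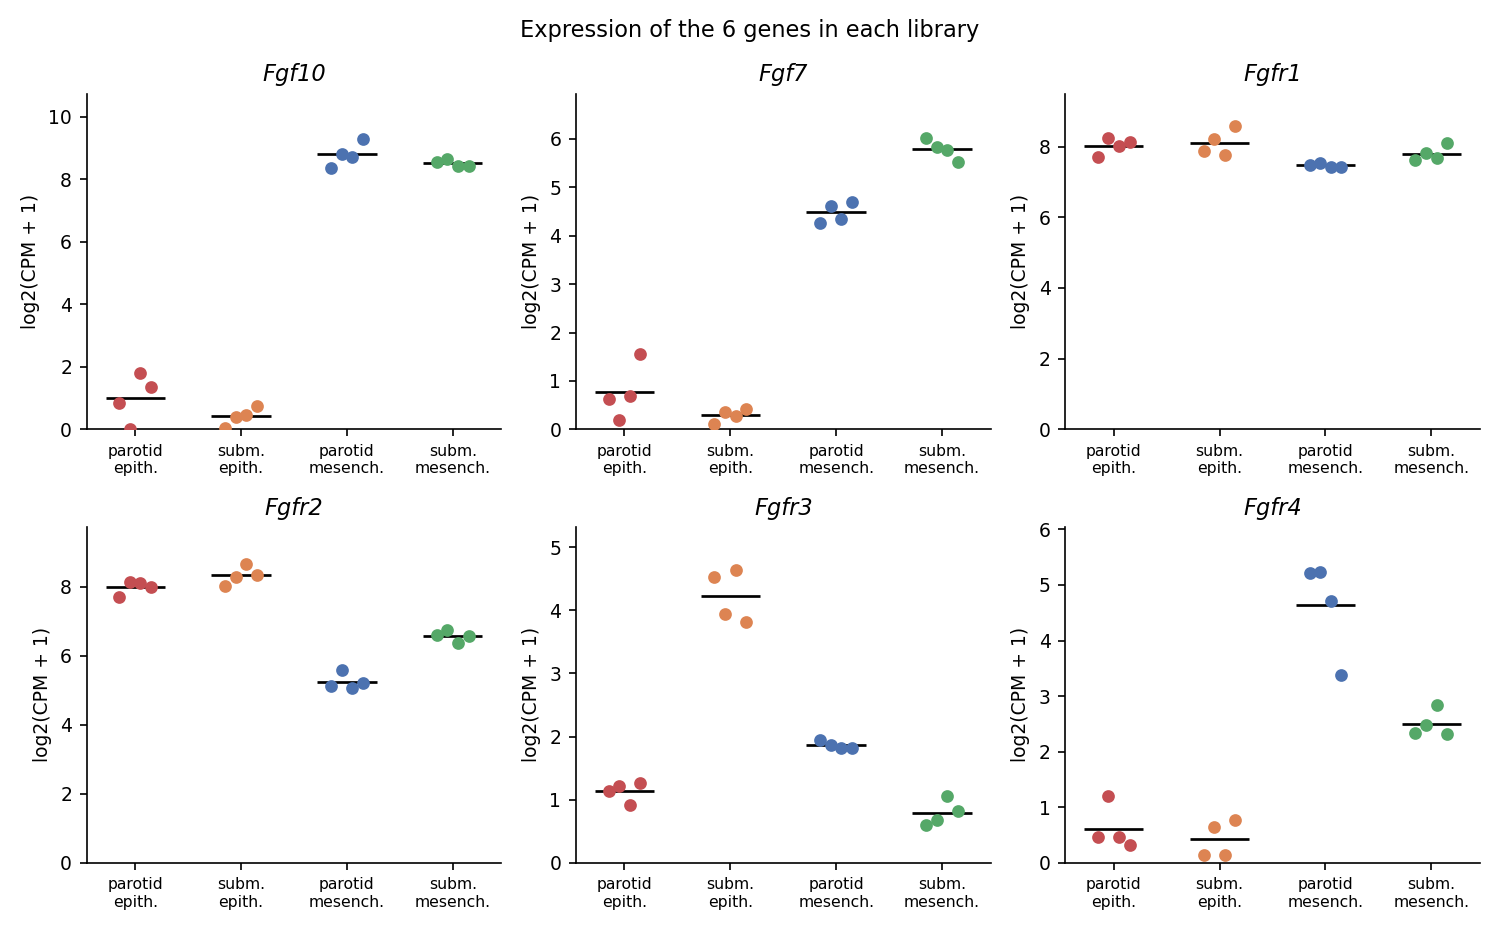
Level of each gene in the 16 libraries, as log2(CPM + 1), where CPM is counts per 1000000 library counts after TMM scaling; points are libraries in replicate order and lines are group means of the plotted values. Fgf10, Fgf7 and Fgfr4 sit high in mesenchyme, Fgfr2 sits high in epithelium, Fgfr3 sits high in submandibular epithelium, and Fgfr1 is high in all 4 groups.

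Fgf10, the ligand that drives budding, was a mesenchymal gene, with ranges that overlapped between the glands. In parotid mesenchyme replicates 1 to 4 it stood at 330, 443, 419 and 631 counts per 1000000 library counts (CPM), and in submandibular mesenchyme at 378, 396, 345 and 342 CPM. The submandibular libraries lay inside the parotid range, which was wide because replicate 4 stood above the other libraries. The log2 change between the mesenchymes (parotid minus submandibular, as in all gland comparisons below) was 0.32 with an SE of 0.36, and edgeR's adjusted p was 0.53. A change within 2 SE of that value could be a lower or a higher parotid level.

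In epithelium Fgf10 was close to 0. The parotid epithelium libraries held 19, 0, 53 and 32 counts (0.806, 0, 2.5 and 1.54 CPM), and the submandibular ones 1, 8, 7 and 18 counts (0.0360, 0.322, 0.371 and 0.660 CPM). The groups overlapped, because parotid replicate 2 had no count, which allows up to 3 counts or 0.141 CPM by counting error alone. The log2 change between the epithelia was 1.78 with an SE of 0.74 and did not pass (edgeR adjusted p = 0.104); without parotid epithelium replicate 2 it was 2.21 and passed (adjusted p = 0.0105). Between the layers the log2 change (epithelium minus mesenchyme) was -8.56 with an SE of 0.53 in parotid (adjusted p = 2.84e-09) and -10.03 with an SE of 0.59 in submandibular gland (adjusted p = 1.5e-09). The epithelial level was 0.266% of the mesenchymal one in parotid and 0.0951% in submandibular gland, in each gland below the share of the summed mesenchymal markers.

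Fgf7, the close relative of Fgf10 also called keratinocyte growth factor, was mesenchymal too, and here the glands differed. It stood at 18.2, 23.6, 19.3 and 25 CPM in the parotid libraries of mesenchyme and at 63.6, 55.9, 54.0 and 44.7 CPM in submandibular mesenchyme. Every submandibular library was above every parotid one. The log2 change was -1.34 with an SE of 0.32 (edgeR adjusted p = 0.0036), and it stayed called without any single library, at -1.42 to -1.26.

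In epithelium Fgf7 ran the other way at a far lower level. The parotid libraries held 13, 3, 13 and 40 counts (0.551, 0.141, 0.613 and 1.93 CPM) and the submandibular ones 2, 7, 4 and 9 counts (0.0719, 0.282, 0.212 and 0.330 CPM). The groups overlapped, and parotid replicate 4 held more counts than the other 3 parotid libraries together. The log2 change was 1.82 with an SE of 0.58 (edgeR adjusted p = 0.036). Without parotid epithelium replicate 4 it was 0.97 (adjusted p = 0.166), and the call was also lost without parotid replicate 3 or without submandibular replicate 1, 2 or 3 (adjusted p = 0.0529 to 0.11). Of 20 mesenchymal markers 8 were higher and 1 lower in parotid epithelium, beside 11.2% and 9.72% of all genes, and none was at 0. Their sums overlapped, at 629 to 949 CPM in parotid and 402 to 860 CPM in submandibular epithelium. Macrophage and leukocyte markers were higher in parotid epithelium for 9 of 12 and lower for none, none was at 0, and their sums did not overlap (22.6 to 36.3 against 4.10 to 12.7 CPM). Endothelial markers were higher for 5 of 12 and lower for 1, with sums that overlapped (10.6 to 20.8 and 12 to 16.6 CPM). The shares of all genes beside these 2 lists are the same 11.2% higher and 9.72% lower. The part of these cell types in the Fgf7 result was not tested.

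Between the layers Fgf7 was lower in epithelium by a log2 change of -4.74 with an SE of 0.41 in parotid (edgeR adjusted p = 3.5e-08) and of -7.90 with an SE of 0.48 in submandibular gland (adjusted p = 5.38e-10). Its epithelial level was 3.75% of the mesenchymal one in parotid gland, above the 2.27% of the summed mesenchymal markers, and 0.411% in submandibular gland, below their 3.26%. Both values lay inside the range of the single markers, which was 0.318 to 107% in parotid (median 1.78%) and 0.335 to 80.2% in submandibular gland (median 2.46%). From medians over libraries in place of means, Fgf7 was at 2.71% and the summed markers at 2.32% in parotid gland. The gland difference in epithelium minus that in mesenchyme was 3.16 with an SE of 0.65 (adjusted p = 0.00249). For Fgf10 the same difference was 1.46 with an SE of 0.83 (adjusted p = 0.241), and 1.89 without parotid epithelium replicate 2 (adjusted p = 0.034).

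The balance of the ligands differed between the mesenchymes. There were 18.1, 18.8, 21.7 and 25.3 Fgf10 counts for each Fgf7 count in the parotid libraries and 5.94, 7.10, 6.38 and 7.66 in the submandibular ones. The ranges were apart, with the lowest parotid ratio above the highest submandibular ratio. The difference of the mean log2 ratios was 1.63 with an SE of 0.14, and the two-sided exact permutation p over 4 against 4 libraries was 0.0286, the smallest that design allows (0.0381 when adjusted over the 4 ratios tested). Against the summed mesenchymal markers, whose range was 28735 to 42224 CPM in the parotid and 17518 to 19644 CPM in the submandibular libraries, Fgf7 was 0.0591 to 0.0636% in parotid and 0.255 to 0.344% in submandibular mesenchyme. Fgf10 was 1.15 to 1.5% of that sum in parotid and 1.76 to 2.04% in submandibular mesenchyme, so on that scale Fgf10 too was lower in all 4 parotid libraries. The scale itself differed between the glands: of the 20 markers 7 were higher and 1 lower in parotid mesenchyme, beside 20.8% and 13.7% of all genes. These shares of the sum have no test.

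**Figure D2:**
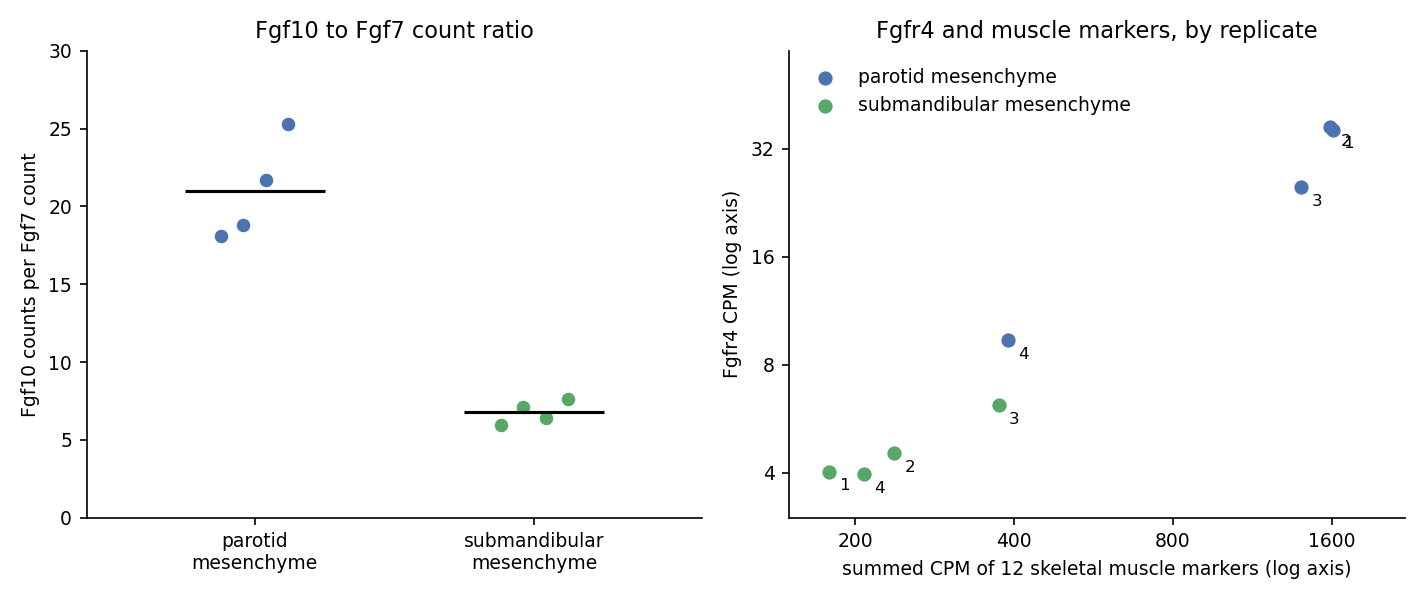
Left, Fgf10 counts per Fgf7 count in each mesenchyme library (points in replicate order, line at the mean); the parotid libraries sit between 18.1 and 25.3 and the submandibular ones between 5.94 and 7.66. Right, Fgfr4 CPM against the summed CPM of 12 skeletal muscle markers in the same 8 libraries, both on log axes with replicate numbers beside the points; Fgfr4 is high where the sum is high, and parotid replicate 4 lies near submandibular replicate 3.

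Fgfr2, the receptor whose IIIb form binds both ligands, was an epithelial gene. It stood at 208, 282, 278 and 256 CPM in parotid epithelium and at 261, 314, 408 and 327 CPM in submandibular epithelium. The parotid libraries were the lower ones on average, and the groups overlapped. The log2 change between the epithelia was -0.36 with an SE of 0.14 and did not pass (edgeR adjusted p = 0.08), while with upper quartile scaling it was -0.41 (adjusted p = 0.0292).

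In mesenchyme Fgfr2 was lower in parotid, with no overlap. It stood at 33.8, 47.1, 32.8 and 36.4 CPM in the parotid libraries and at 96.8, 106, 82.3 and 94.9 CPM in submandibular mesenchyme. The log2 change was -1.34 with an SE of 0.14 (edgeR adjusted p = 2.08e-06), and it differed from that in epithelium by 0.99 with an SE of 0.20 (adjusted p = 0.00186). Mesenchyme held 14.7% of the epithelial level in parotid and 29% in submandibular gland, against 0.879% and 1.37% for the summed epithelial markers. Between the layers the log2 change was 2.77 with an SE of 0.15 in parotid (adjusted p = 9.12e-11) and 1.78 with an SE of 0.14 in submandibular gland (adjusted p = 9.85e-09).

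Fgfr1, a receptor whose IIIc form serves mesenchymal cells, was the most even of the 6 genes. It stood at 206, 303, 260 and 280 CPM in parotid epithelium and at 232, 294, 215 and 383 CPM in submandibular epithelium, ranges that overlapped. In mesenchyme it stood at 177, 186, 172 and 172 CPM in the parotid libraries and at 197, 225, 203 and 274 CPM in submandibular gland, all 4 above the parotid libraries. The log2 change was -0.10 with an SE of 0.16 between the epithelia (edgeR adjusted p = 0.692) and -0.34 with an SE of 0.16 between the mesenchymes (adjusted p = 0.107). The mesenchymal change passed in a fit to its 8 libraries alone (-0.42, adjusted p = 0.00676) and with library totals as the only scaling (-0.52, adjusted p = 0.0153), a scaling under which the median of all genes moved to -0.14. Fgfr1 was higher in epithelium than in mesenchyme in parotid gland, by 0.57 with an SE of 0.16 (adjusted p = 0.0048), and in submandibular gland the change was 0.32 with an SE of 0.16 (adjusted p = 0.0805). That change passed without submandibular epithelium replicate 1 (0.40), submandibular epithelium replicate 3 (0.42) or submandibular mesenchyme replicate 4 (0.43). The difference between those layer changes was 0.24 with an SE of 0.22 (adjusted p = 0.5).

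Fgfr3, a receptor best known for restraining bone growth, had the largest gland difference of the 6 genes, in epithelium. It stood at 22.0, 14.4, 23.8 and 13.0 CPM in submandibular epithelium and at 1.19, 1.31, 0.896 and 1.40 CPM in parotid epithelium. No parotid library came near the submandibular ones. Its log2 change was -3.93 with an SE of 0.26 (edgeR adjusted p = 4.09e-08), and without any single library it was -4.04 to -3.76.

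In mesenchyme Fgfr3 was low and the order of the glands was the reverse. It stood at 2.84, 2.63, 2.53 and 2.52 CPM in the parotid libraries and at 0.510, 0.599, 1.08 and 0.762 CPM in submandibular mesenchyme, with no overlap. The log2 change was 1.82 with an SE of 0.27 (edgeR adjusted p = 5.93e-05), on 219 and 57 counts in all. The gland difference in epithelium minus that in mesenchyme was -5.75 with an SE of 0.37 (adjusted p = 2.26e-08). Fgfr3 was thus higher in epithelium than in mesenchyme in submandibular gland, by 4.62 with an SE of 0.28 (adjusted p = 2.64e-10), and lower in parotid gland, by -1.13 with an SE of 0.25 (adjusted p = 0.000867).

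Fgfr4, a receptor that developing skeletal muscle makes in quantity, was mesenchymal and higher in parotid. It stood at 36.2, 36.8, 25.1 and 9.38 CPM in parotid mesenchyme and at 4.03, 4.54, 6.19 and 3.97 CPM in submandibular mesenchyme. The groups did not overlap, but parotid replicate 4 was far below the other 3 parotid libraries. Its log2 change was 2.52 with an SE of 0.48 (edgeR adjusted p = 0.000704), and without any single library it was 2.32 to 2.81.

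Skeletal muscle markers moved with Fgfr4. Of 12 such genes 11 were higher and none lower in parotid mesenchyme, beside 20.8% and 13.7% of all genes, and none was at 0. Their sum was 1608, 1590, 1402 and 389 CPM in the parotid libraries against 179, 237, 374 and 208 CPM in the submandibular ones. Parotid replicate 4 was thus the lowest parotid library for both. Fgfr4 was 2.25, 2.31, 1.79 and 2.41% of the muscle sum in the parotid libraries and 2.26, 1.91, 1.65 and 1.91% in the submandibular ones, ranges that overlapped. This ratio was chosen after the values were seen and has no test, and the part of muscle cells in the Fgfr4 result was not tested.

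In epithelium Fgfr4 stood at 0.382, 1.31, 0.377 and 0.241 CPM in the parotid libraries and at 0.108, 0.564, 0.106 and 0.697 CPM in submandibular gland. The groups overlapped, and the log2 change was 0.60 with an SE of 0.67 (edgeR adjusted p = 0.567). Between the layers Fgfr4 was lower in epithelium by -5.52 with an SE of 0.58 in parotid (adjusted p = 4.08e-07) and by -3.61 with an SE of 0.58 in submandibular gland (adjusted p = 4.34e-05). The difference of the gland changes was -1.92 with an SE of 0.83 and did not pass (adjusted p = 0.117). It passed without parotid epithelium replicate 2 (-2.68, adjusted p = 0.0295) or parotid mesenchyme replicate 4 (-2.22, adjusted p = 0.0409).

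**Figure D3:**
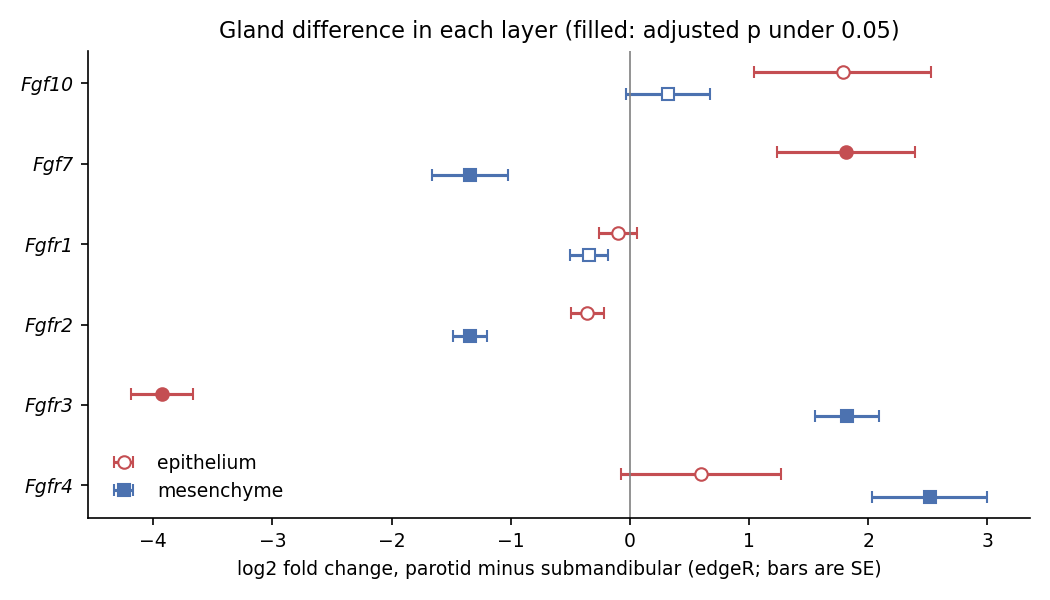
Log2 fold change of each gene between the glands (parotid minus submandibular) in epithelium (circles) and mesenchyme (squares), with edgeR's SE as bars and filled symbols for an adjusted p under 0.05. Fgfr3 is at -3.93 in epithelium and 1.82 in mesenchyme, Fgf7 is at 1.82 and -1.34, and Fgfr2 is at -0.36 and -1.34.

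To order the genes within a group, CPM was divided by the length of the longest coding transcript, which gives CPM per kb. In parotid epithelium Fgfr2 stood at 77.0 ± 10.2 (SD, n = 4) and Fgfr1 at 52.0 ± 8.13 CPM per kb, and the other 4 genes lay at 0.174 to 0.302, neighbours in that order overlapping. In submandibular epithelium the order was Fgfr2 (98.6 ± 18.2), Fgfr1 (55.8 ± 15.1) and Fgfr3 (4.34 ± 1.28), each apart from the next, and then Fgfr4, Fgf10 and Fgf7 at 0.0839 to 0.111, which overlapped. The order of Fgfr2 and Fgfr1 in epithelium depended on the length used. Over the union of all annotated exons Fgfr1 stood at 26.5 and Fgfr2 at 24.8 CPM per kb in parotid epithelium, and Fgfr2 at 31.7 and Fgfr1 at 28.5 CPM per kb in submandibular epithelium, and in both groups they overlapped.

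In mesenchyme the ligand Fgf10 led on the same CPM per kb scale. In parotid mesenchyme Fgf10 stood at 111 ± 30.8 and Fgfr1 at 35.1 ± 1.32, followed by Fgfr2 (11.3 ± 1.97), Fgfr4 (8.08 ± 3.86) and Fgf7 (8.06 ± 1.22), where neighbours overlapped, and Fgfr3 (0.623 ± 0.0357). In submandibular mesenchyme the order was Fgf10 (88.8 ± 6.39), Fgfr1 (44.5 ± 6.93), Fgfr2 (28.6 ± 2.97), Fgf7 (20.4 ± 2.91), Fgfr4 (1.41 ± 0.312) and Fgfr3 (0.175 ± 0.0598), each apart from the next. Over the union of exons Fgfr4 and Fgf7 stood above Fgfr2 in parotid mesenchyme, and Fgf7 above Fgfr2 in submandibular mesenchyme.

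As a share of the 4 receptors' summed CPM per kb (longest coding transcript), Fgfr2 made up 59.5% in parotid and 62.0% in submandibular epithelium, and Fgfr1 40.1% and 35.1%. In parotid epithelium Fgfr1 was the larger share under the other lengths, at 51.3% against 48.0% for Fgfr2 over the union of exons and 50.6% against 49.1% over coding length. Fgfr3 made up 2.80% in submandibular and 0.222% in parotid epithelium. In mesenchyme Fgfr1 made up 64.1% in parotid and 59.4% in submandibular gland, and Fgfr2 20.5% and 38.4%. Fgfr4 made up 14.2% in parotid and 1.92% in submandibular mesenchyme. Over the union of exons the order of Fgfr2 and Fgfr4 in parotid mesenchyme turned, with Fgfr4 at 24.7% and Fgfr2 at 12.4%, against 4.04% and 27.7% in submandibular mesenchyme.

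**Figure D4:**
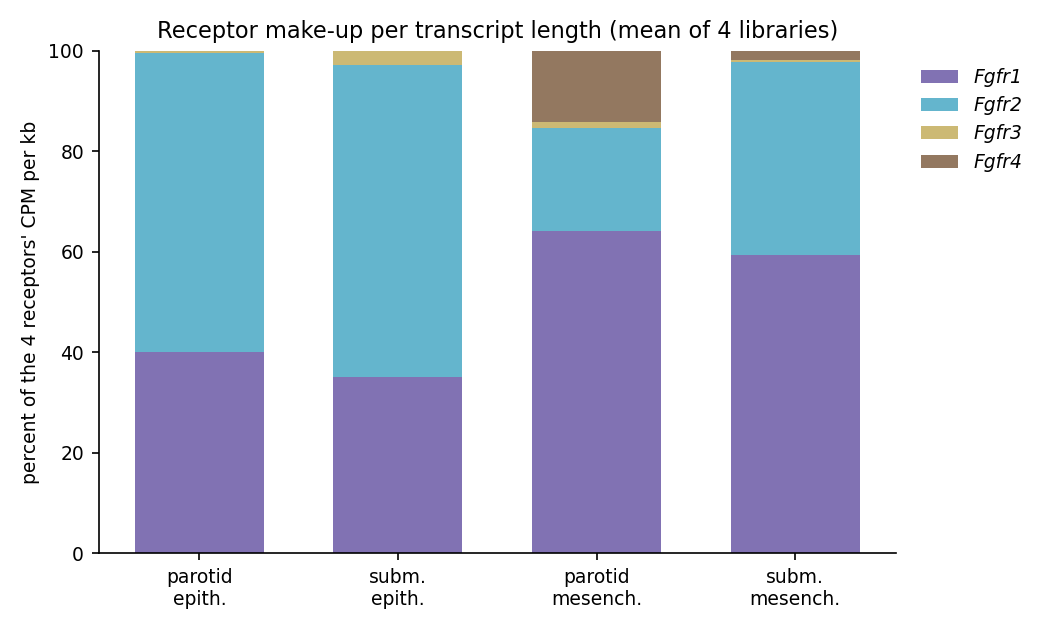
Share of each receptor gene in the summed CPM per kb of the 4 receptor genes, in percent, as the mean of the shares in 4 libraries with the longest coding transcript as length. With this length Fgfr2 is the largest part in both epithelia (59.5% and 62.0%; in parotid epithelium Fgfr1 is larger over the union of exons, at 51.3%), Fgfr1 is the largest part in both mesenchymes (64.1% and 59.4%), and Fgfr4 is visible mainly in parotid mesenchyme (14.2%).

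Ratios within a library do not depend on its scaling. There were 0.191, 0.253, 0.190 and 0.211 Fgfr2 counts for each Fgfr1 count in parotid mesenchyme and 0.492, 0.472, 0.406 and 0.347 in submandibular mesenchyme. The groups were apart, with a difference of mean log2 ratios of -1.02 (SE 0.15, two-sided exact permutation p = 0.0286, adjusted 0.0381). In epithelium the same ratio was 0.915 to 1.07 in parotid and 0.854 to 1.90 in submandibular libraries, a difference of -0.27 with an SE of 0.25 (exact permutation p = 0.371). The Fgfr3 to Fgfr2 ratio in epithelium was 0.00323 to 0.00571 in parotid and 0.0398 to 0.0844 in submandibular libraries, a difference of -3.56 (SE 0.30, exact permutation p = 0.0286, adjusted 0.0381).

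The form of Fgfr1, Fgfr2 and Fgfr3 that a cell makes depends on splicing factors. Listed were 12 splicing factor genes, whose effect on these receptors was not tested here. Esrp1 and Esrp2, which favour the IIIb exon in epithelia, followed the layers: Esrp1 stood at 223 ± 41.3 and 228 ± 16.9 CPM (SD, n = 4) in parotid and submandibular epithelium and at 1.27 ± 1.96 and 0.823 ± 0.869 CPM in the mesenchymes. Esrp2 stood at 38.4 ± 7.06 and 62.7 ± 12.9 CPM in the epithelia and at 0.302 ± 0.318 and 0.520 ± 0.248 CPM in the mesenchymes. None of the 12 was called by edgeR between the epithelia, beside 20.9% of all genes (median log2 change -0.04, against -0.0016 over all genes). At an unadjusted p under 0.05 edgeR had 1 of the 12, Esrp2, which DESeq2 and limma-voom each called after adjustment. Between the mesenchymes 1 was higher (Ptbp1, which represses alternative exons and stood at 0.42, or 0.24 with adjusted p = 0.113 when library totals were the only scaling) and 4 were lower in parotid (41.7% called, beside 34.5% of all genes), with a median of -0.41 against 0.04 over all genes. The largest of these was Rbm47, an RNA-binding protein, at 1.03 ± 0.505 against 26.2 ± 3.76 CPM (parotid against submandibular mesenchyme, log2 change -4.69, SE 0.24, edgeR adjusted p = 7.7e-10).

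Of the 20 other FGF genes listed 10 passed the filter. Among these 10, Fgf11, Fgf12, Fgf13 and Fgf14 encode intracellular proteins that are not ligands of the receptors. Fgf9 and Fgf1 were the epithelial ligands among those with 10 CPM or more, and both were lower in parotid epithelium. Fgf9, which signals to mesenchyme, stood at 30.1 ± 4.06 against 67.8 ± 7.36 CPM (parotid against submandibular epithelium, log2 change -1.17, SE 0.31, edgeR adjusted p = 0.014), and -1.14 with no filter on low counts (adjusted p = 0.0556). Fgf1, which binds all 4 receptors, stood at 36.1 ± 3.08 and 77.9 ± 18.3 CPM (log2 change -1.11, SE 0.17, adjusted p = 0.00029). They were 2 of 10 called (20%, beside 20.9% of all genes), none being higher in parotid, and the median over the 10 was 0.14.

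In mesenchyme 7 of the 10 other FGF genes were higher and 1 was lower in parotid (80% called, beside 34.5% of all genes), with a median log2 change of 1.49 against 0.04 over all genes. The higher ones, named after their values were seen, included the intracellular Fgf11 (1.27), Fgf12 (2.01), Fgf13 (2.53) and Fgf14 (4.22). The others were the secreted Fgf5 (1.47), Fgf9 (1.52) and Fgf18 (1.65), so the count and median do not describe ligands alone. The lower one was Fgf2, at 6.40 ± 1.76 against 22.9 ± 3.79 CPM (parotid against submandibular mesenchyme, log2 change -1.84, SE 0.36, edgeR adjusted p = 0.00081). Among the higher ones Fgf18, a secreted factor of skeletal tissue, stood at 23.5 ± 1.08 against 7.49 ± 4.14 CPM. Fgf13 stood at 35.9 ± 9.05 against 6.21 ± 2.57 CPM and Fgf14 at 16 ± 4.43 against 0.856 ± 0.321 CPM, and both encode intracellular proteins that bind sodium channels in neurons. Of 11 neuronal markers tested 5 were higher and 3 lower in parotid mesenchyme, beside 20.8% and 13.7% of all genes, and none was at 0. Their sum ranged from 1416 to 2407 CPM in the parotid and from 114 to 288 CPM in the submandibular libraries. The part of neurons in these changes was not tested.

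Coreceptors and binding proteins of FGFs were called for 3 of 11 between the epithelia (2 higher, 1 lower in parotid) and for 5 of 11 between the mesenchymes (4 higher, 1 lower). These were 27.3% and 45.5% of the 11, beside 20.9% and 34.5% of all genes. The median log2 changes were -0.05 and 0.29. Nrp1, a coreceptor better known for VEGF and semaphorins, stood at 14.5 ± 3.86 against 2.37 ± 1.5 CPM (parotid against submandibular epithelium), and at 357 ± 47.5 and 93.6 ± 23.4 CPM in the mesenchymes. Flrt2, a membrane protein that binds FGF receptors, stood at 699 ± 126 against 254 ± 16.6 CPM (parotid against submandibular mesenchyme, log2 change 1.46, SE 0.13, edgeR adjusted p = 3.3e-07). Fgfbp1, a carrier that frees FGFs from the matrix, was epithelial in both glands, at 34.3 ± 10.7 and 35.5 ± 7.92 CPM, against 0.328 ± 0.164 and 0.0272 ± 0.0545 CPM in the mesenchymes.

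Heparan sulfate chains hold FGFs near the cell and complete the receptor complex, and 27 genes of their core proteins and enzymes were tested. Between the epithelia 1 was higher and 2 were lower in parotid (11.1% called, beside 20.9% of all genes), with a median of 0.02. Sulf1, which removes sulfate groups from the chains, was the largest of these at 3.21 ± 1.55 against 115 ± 55.8 CPM (parotid against submandibular epithelium, log2 change -5.17, SE 0.69, edgeR adjusted p = 0.00015). The core protein Sdc3 was higher in parotid in both layers, at 148 ± 9.91 against 66.6 ± 9.82 CPM in epithelium and 235 ± 26.1 against 84.6 ± 9.49 CPM in mesenchyme. Between the mesenchymes 12 were higher and 3 lower in parotid (55.6% called, beside 34.5% of all genes), with a median of 0.37, the former including the core proteins Sdc2 (173 ± 65.9 against 47.2 ± 2.52 CPM) and Gpc4 (101 ± 17.0 against 28.2 ± 8.68 CPM).

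Inside the cell 22 adaptors and kinases relay the signal. Between the epithelia 2 were higher and 1 was lower in parotid (13.6% called, beside 20.9% of all genes), with a median of 0.16. Plcg1, the phospholipase that binds activated FGF receptors, stood at 149 ± 15.6 against 111 ± 17.8 CPM (parotid against submandibular epithelium, log2 change 0.42, SE 0.10, edgeR adjusted p = 0.0084). Between the mesenchymes 9 were higher and none was lower in parotid (40.9% called, beside 34.5% of all genes), with a median of 0.17. Skeletal and smooth muscle markers were higher in parotid mesenchyme for 11 of 12 and 7 of 10, and none was lower. Neuronal markers were higher for 5 of 11 tested and lower for 3. For all genes these shares were 20.8% higher and 13.7% lower. The part of these cell types in the relay, coreceptor, heparan sulfate and splicing factor genes was not tested. The largest change among the relay genes was that of Pik3r1, the regulatory subunit of PI3 kinase. It stood at 120 ± 17.3 against 46.0 ± 16.1 CPM (parotid against submandibular mesenchyme, log2 change 1.39, SE 0.18, edgeR adjusted p = 2e-05).

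Genes that FGF signalling through ERK is known to switch on, most of them feedback inhibitors, were tested for 15 of the 16 listed. More of them were higher than lower in epithelium. In each gland 9 of 15 were higher (31.4% of all genes in parotid and 33.3% in submandibular gland) and 2 lower (33.5% and 33.7%). The share called was 73.3%, beside 64.9% of all genes in parotid and 67% in submandibular gland. The median log2 changes were 0.82 in parotid and 1.13 in submandibular gland, against -0.0044 and 0.01 over all genes. Etv5, an ETS factor that FGF10 induces in lung and salivary buds, stood at 718 ± 140 and 473 ± 117 CPM in parotid and submandibular epithelium and at 97.8 ± 10.3 and 53.6 ± 8.09 CPM in the mesenchymes. Dusp6, a phosphatase of ERK, stood at 646 ± 62.4 and 728 ± 113 CPM in the epithelia and at 227 ± 22.7 and 123 ± 11.9 CPM in the mesenchymes. Spry4 went the other way, at -2.87 with an SE of 0.21 in parotid (edgeR adjusted p = 3e-09). In submandibular gland it was at -1.66 with an SE of 0.20 (adjusted p = 1.11e-06). The other lower genes were Etv1 in parotid (-0.70) and Rasa3 in submandibular gland (-0.70).

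Between the epithelia 3 response genes were called (20% of the 15, beside 20.9% of all genes), all higher in parotid, and the median of the 15 was 0.09. Etv5 changed by 0.60 with an SE of 0.16 (edgeR adjusted p = 0.017), Il17rd, an inhibitor of FGF receptors, by 0.74 with an SE of 0.22 (adjusted p = 0.029), and Spred3, an inhibitor of RAS signalling, by 0.77 with an SE of 0.25 (adjusted p = 0.035). Each of these calls was lost when certain single libraries were left out: parotid replicate 2 or submandibular replicate 1 for Etv5 (0.50 without either), and parotid replicate 2 or submandibular replicate 2 or 3 for Spred3 (0.55, 0.63 and 0.81). Il17rd lost its call without parotid replicate 1 or 2 or submandibular replicate 1, 2 or 3 (0.64 to 0.74). Etv4, the near relative of Etv5, stood at 163 ± 35.7 and 167 ± 37.4 CPM (log2 change -0.03, SE 0.24, adjusted p = 0.94).

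Between the mesenchymes 8 response genes were higher and 3 lower in parotid (73.3% called, beside 34.5% of all genes), with a median of 0.60 against 0.04 over all genes. Dusp6 changed by 0.88 with an SE of 0.11 (edgeR adjusted p = 1.4e-05), Etv1 by 1.43 with an SE of 0.18 (adjusted p = 9.2e-06) and Il17rd by 1.71 with an SE of 0.24 (adjusted p = 3.9e-05). The 3 lower ones, named after their values were seen, were Etv4, Rasa3 and Spred1, at -0.76, -0.50 and -0.49. Skeletal and smooth muscle markers also differed between these groups (11 of 12 and 7 of 10 higher in parotid, none lower). Neuronal markers were split, with 5 of 11 higher and 3 lower in parotid. For all genes these shares were 20.8% higher and 13.7% lower. The part of these cell types in the response genes was not tested.

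**Figure D5:**
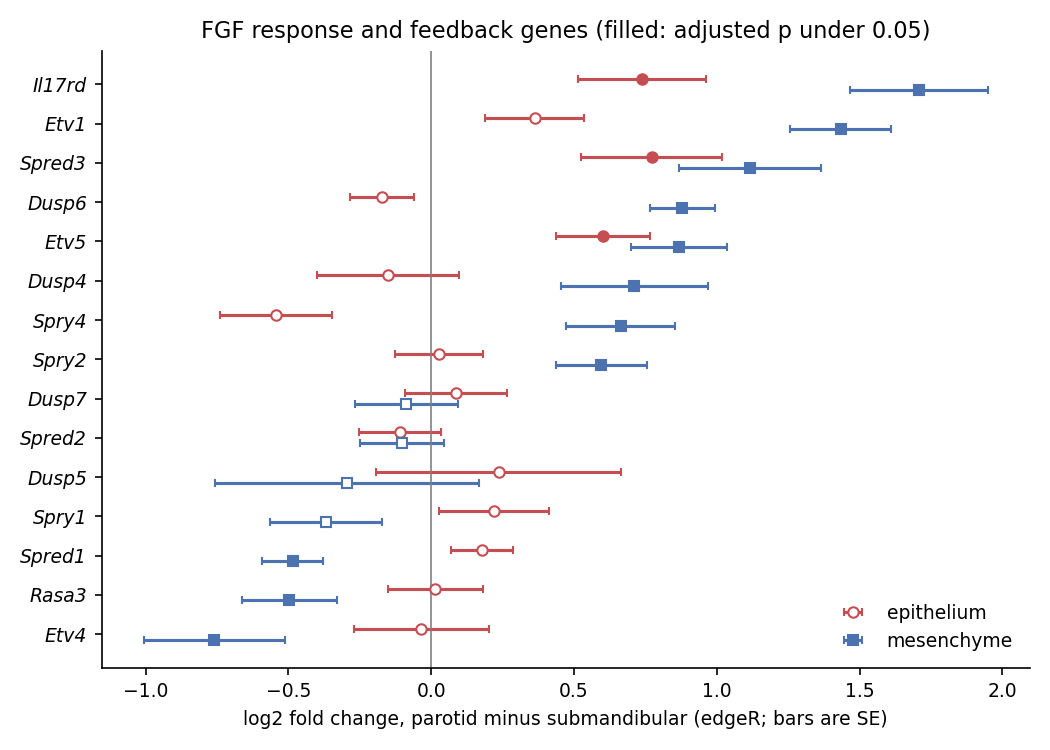
Log2 fold change between the glands (parotid minus submandibular) of the 15 FGF response and feedback genes tested, in epithelium (circles) and mesenchyme (squares), with edgeR's SE as bars and filled symbols for an adjusted p under 0.05. In mesenchyme 8 filled squares lie to the right and 3 to the left of 0, and in epithelium the 3 filled circles (Il17rd, Spred3 and Etv5) lie to the right.

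The next 12 genes were listed as dependent on FGF signals in growing end buds, a dependence that was not tested here. In epithelium 9 were higher than in mesenchyme in parotid and 7 in submandibular gland (31.4% and 33.3% of all genes). In both glands 2 of the 12, Bmp4 and Mycn, were lower in epithelium (33.5% and 33.7% of all genes). Between the glands the 12 were split. In epithelium 3 were higher and 5 lower in parotid (66.7% called, beside 20.9% of all genes), with a median of -0.04. Myc changed by 0.94 with an SE of 0.19 (edgeR adjusted p = 0.0024), at 363 ± 54.6 against 188 ± 46.3 CPM. Cldn10, a tight junction gene, was at 1.89 ± 0.438 against 54.3 ± 11.7 CPM (parotid against submandibular epithelium, log2 change -4.84, SE 0.24, adjusted p = 1.2e-09), and the stem cell factor receptor Kit at 38.9 ± 6.67 and 87.7 ± 20.2 CPM. In mesenchyme 2 were higher and 3 lower in parotid (41.7% called, beside 34.5% of all genes). The largest change there was that of Lama1, at -4.26 with an SE of 0.39 (edgeR adjusted p = 7.03e-07). Sox9 stood at 155 ± 34.8 against 9.45 ± 1.45 CPM, and Bmp7 at 23.3 ± 5.30 against 161 ± 23.2 CPM (parotid against submandibular mesenchyme).

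The genes most like each of the 6 were those with the smallest root mean square difference of log2 CPM profiles over the 16 libraries, each profile centred on its own mean, among 11471 genes with at least 10 CPM in 1 or more groups. For Fgfr1 they were Sik3 (0.15), Cep68 (0.16) and Vwa8 (0.17), and for Fgfr2 Dpp4 (0.32), Stard10 (0.32) and Patj (0.35). For Fgf7 they were Tcf15 (0.55), Gm37644 (0.56) and Myct1 (0.57). For Fgfr3 they were Sostdc1 (0.56), Rnf128 (0.59) and Hspb1 (0.78), for Fgfr4 Itga7 (0.63), Sytl2 (0.72) and Col19a1 (0.73), and for Fgf10 Ccdc85a (0.94), Kera (0.96) and Col6a1 (1.00). Fgf10 had no profile as close as those of the other genes, and Fgfr1, which varied least, had the closest. The measure is not scaled to the range of a profile, and Fgf10 had the largest layer changes of the 6 genes (-8.56 and -10.03). The order of these distances therefore does not set Fgf10 apart. The comparison is a description of 4 groups of libraries that differed in depth, and it carries no test. The labels name no batch, so whether libraries of a group or of a gland shared 1 is not known. Sample numbers in the deposited column names form separate runs for the parotid and the submandibular libraries. What these numbers stand for is not given, and a batch that followed them could not be told apart from gland.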

How the data were processed

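Per the labels' protocols, TRIzol RNA was turned into full-length cDNA with SMART-Seq v4 and tagmented with Nextera XT, neither of which marks strand. Per the submitters' processing notes the authors used STAR 2.5.2a and edgeR on GRCm38 (mm10); the sources used here do not name the counter or annotation. The authors deposited raw counts per gene, which were tested here, and a normalized signal that their table names CPM, which recomputed to within a relative difference of 4.98e-15 and served to find the members. The CPM printed here use TMM factors after another filter and differ from it by at most 4.45% for the 6 genes.

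Spike-ins were left out and filterByExpr kept 18191 genes, with at least 99.88% of the counts of every library. In edgeR 4.0.16 (R 4.3.3) 1 robust quasi-likelihood model of the 4 groups took in all 16 libraries, with Benjamini-Hochberg adjustment over all genes tested. The SE is the log2 change divided by the square root of F. Fitted changes include edgeR's prior count. Ratios were compared by exact permutation (scipy 1.17.1). The exclusive exons and lengths are from GENCODE M21. The scripts were tested on simulated data. Alternatives were other scalings and filters, DESeq2 1.42.0, limma-voom (limma 3.58.1), fits to 8 libraries, a replicate block and leaving out each library. P-values measure the spread between libraries that the labels call independent.

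From each list the genes named were up to 4 called genes with the largest changes whose mean reached 10 CPM in a group compared; genes not called may be named. The 6 genes, lists and markers were chosen with earlier results of these data known.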

Additional observations from a re-analysis of the deposited data

Results flagged for a closer look

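Of 24 sets of 4 libraries (6 genes in 4 groups), 1 had a library far from the other 3: Fgfr4 in parotid epithelium, where replicate 2 stood at 1.31 CPM. Chance flags about 1 in 20 such sets. Without that library the log2 change between the epithelia was -0.165 in place of 0.60, with no call either way.

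The gland difference differed between epithelium and mesenchyme for 3 of the 6 genes by edgeR's test of that difference. The difference of log2 changes was 3.16 for Fgf7 (adjusted p = 0.00249), 0.987 for Fgfr2 (adjusted p = 0.00186) and -5.75 for Fgfr3 (adjusted p = 2.26e-08). Fgf7 and Fgfr3 had opposite signs in the layers, and both layers were called for each. The epithelial side of Fgf7 rests on 69 counts in parotid and 22 in submandibular epithelium.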

How the results depend on the processing

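Calls between the layers kept their side for Fgf10, Fgf7, Fgfr2, Fgfr3 and Fgfr4 under every alternative run, as did the gland differences in mesenchyme of Fgf7, Fgfr2, Fgfr3 and Fgfr4, that of Fgfr3 in epithelium, and the layer interactions of Fgf7, Fgfr2 and Fgfr3. The number of genes called between the epithelia was 3801, and 2452 to 4540 with 1 library left out, lowest without submandibular epithelium replicate 1. The cause was not tested for the changes that follow. Fgf7 between the epithelia lost its call with no filter (1.85), with limma-voom (1.43) and in leave-one-out fits (0.971 to 2.18). Fgfr1 and Fgfr4 changed sign there without a call, Fgfr1 when parotid epithelium replicate 1 (0.0193) or submandibular epithelium replicate 4 (0.107) was left out (range -0.191 to 0.107) and Fgfr4 when parotid epithelium replicate 2 was left out (-0.165, range -0.165 to 1.13). Calls were gained by Fgf10 between the epithelia (1.16 to 2.40 with 1 library left out) and in the interaction (0.841 to 2.09), by Fgfr4 in the interaction (-2.68 to -1.38) and by Fgfr1 between the layers of submandibular gland (0.124 to 0.432). Fgfr2 between the epithelia gained a call with upper quartile scaling (-0.411) and with library totals (-0.388). Fgfr1 between the mesenchymes gained one with upper quartile scaling (-0.453), library totals (-0.519), a minimum of 1 CPM in 4 libraries (-0.411) and only its 8 libraries (-0.419). Library totals alone moved the median of all genes to -0.137 between the mesenchymes and to -0.104 between the layers of submandibular gland.

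Replicate numbers gave no clear pairing of the libraries: correlations of same-numbered libraries were -0.12 to 0.218, and in no pair of groups were all above 0.1. They were highest for submandibular epithelium and mesenchyme (0.0211 to 0.218), where 5 of 8 libraries were closest to their own number. In the other pairs of groups this held for 0 to 4 of 8. A pairing that the numbers do not follow would not show in these correlations or in the replicate block. With the replicate block, Fgf7 between the epithelia was 1.78 (adjusted p = 0.0514), Fgfr1 between the mesenchymes -0.323 (adjusted p = 0.0486) and Fgfr1 between the layers of submandibular gland 0.309 (adjusted p = 0.0329); no other call of the 6 genes changed. The paired log2 ratios in the block were 1.63, -1.02 and -3.56 with an exact p of 0.125, the smallest that 4 pairs allow. With 1 library left out they were 1.53 to 1.69 (Fgf10 to Fgf7), -1.12 to -0.95 (Fgfr2 to Fgfr1 in mesenchyme) and -3.71 to -3.35 (Fgfr3 to Fgfr2), with an exact p of 0.0571, the smallest that 3 against 4 allows. Fgf10, Fgf7 and Fgfr4 in epithelium rest on 0 to 53 counts in a library (at most 2.5 CPM), and their fold changes have the largest SEs between the epithelia.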
